A study of Homo sapiens with 8 samples.

Results

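The 42 genes described here act in S phase, when DNA is copied, or in G2 phase and mitosis (G2/M). They were chosen by name, 16 for S phase and 26 for G2/M, and matched by symbol among the 30386 genes of the deposited table, where each had 1 row. Messenger RNA had been sequenced from 8 samples of endothelial cells, all at passage 1 and all from WTC-TJP1, which is 1 line of human induced pluripotent stem cells. The iEC group holds 4 samples of endothelial cells, and the iREC group 4 samples of retinal endothelial cells from a differentiation matched to the first. Each group carries the letters C, D, E and F, and the labels name no treatment. They do not say whether samples came from separate cultures, so p-values measure only the spread between these samples, which may be technical. All 42 genes passed the filter on low counts and were among the 15330 genes tested.

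A dividing cell first licenses its replication origins by loading the MCM2 to MCM7 helicase, with CDC6 and CDT1 as loaders, and then copies its DNA with PCNA as the sliding clamp. E2F transcription factors and cyclin E drive that step, and later in the cycle cyclins A and B with CDK1, the Aurora and Polo kinases and a set of kinesins build and use the spindle. Endothelial cells divide in culture and during vessel growth and are mostly quiescent in mature vessels. In bulk RNA, fewer cycling cells and less of these RNAs per cell cannot be told apart.

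The promoters of the S phase and G2/M genes are known to differ in the short motifs they carry. The stretches below are chosen examples from genes described later. RefSeq windows of 300 bases (GRCh38.p14, 250 before and 50 after the annotated start) were available for 34 of the 42 genes. They were searched on both strands for the cell cycle homology region (CHR, TTTGAA or TTCGAA), the CCAAT box (CCAAT) and an E2F element (TTTCGCGC, TTTGGCGC, TTTCCCGC or TTTGCCGC). Each line gives 60 bases from before the annotated start, 5′ to 3′ on the strand of the gene, and capitals mark every match to one of these motifs that lies wholly in the line, read on either strand. The first 4 are G2/M genes, with MKI67 showing the widest spread between samples of all 42, and the last 3 are S phase genes, with PCNA showing a narrow one.
MKI67: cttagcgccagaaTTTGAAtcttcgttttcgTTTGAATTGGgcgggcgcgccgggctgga
KIF11: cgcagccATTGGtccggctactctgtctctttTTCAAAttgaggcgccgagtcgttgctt
CDK1: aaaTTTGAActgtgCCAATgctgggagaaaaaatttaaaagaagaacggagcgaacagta
CDC20: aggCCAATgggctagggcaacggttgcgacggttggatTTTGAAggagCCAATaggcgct
MCM6: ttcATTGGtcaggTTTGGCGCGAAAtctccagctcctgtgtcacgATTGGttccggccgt
PCNA: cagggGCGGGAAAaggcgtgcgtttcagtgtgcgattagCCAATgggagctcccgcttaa
E2F1: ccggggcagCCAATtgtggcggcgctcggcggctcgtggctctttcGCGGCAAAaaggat

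The stretches lie at chr10:128126424-128126483 (minus strand, MKI67), chr10:92593070-92593129 (plus strand, KIF11), chr10:60778167-60778226 (plus strand, CDK1) and chr1:43358878-43358937 (plus strand, CDC20). Those of the S phase genes lie at chr2:135876487-135876546 (MCM6), chr20:5126627-5126686 (PCNA) and chr20:33686405-33686464 (E2F1), all on the minus strand. In MKI67 the CHR matches begin 47 and 29 bases before the start, and the second of them shares 1 base with a CCAAT box on the opposite strand. The printed CHR match begins 161 bases before the start in CDK1 and 65 in CDC20. In KIF11 it is read on the opposite strand and begins 28 bases before the start. In MCM6 the printed E2F matches on the 2 strands overlap and begin 90 and 86 bases before the start. The PCNA and E2F1 elements, also on the opposite strand, begin 59 and 33 bases before the start. Outside the printed bases, the window of CDK1 also held an E2F element after the start, and that of MCM6 a CHR match 246 bases before it. Among stretches not printed, those of CCNB2, BUB1, AURKB and CENPF held no CHR match, and those of GINS2 and RRM1 no E2F element. Elsewhere in their windows, CCNB2 held a CHR match 29 bases before the start, and GINS2 an E2F element 31 bases before it. BUB1 and CENPF held a CHR match after the start. Only AURKB, for the CHR, and RRM1, for the E2F element, lacked the motif in the whole window.

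Over whole windows, the CHR was present in 15 of 21 G2/M genes and 2 of 13 S phase genes, against 16.4% of all 35116 windows. The E2F element showed the opposite distribution, with 10 of 13 S phase genes and 2 of 21 G2/M genes, against 3.31% of all windows. CCAAT boxes were present in 17 of 21 G2/M genes and 9 of 13 S phase genes, against 34.6% of all windows. CHR and CCAAT occurred together in 13 of the G2/M windows and 2 of the S phase windows, against 6.38% overall. CCNB1, which encodes cyclin B1, held 2 CCAAT boxes and no CHR match in its window, and TYMS, which encodes thymidylate synthase, held 1 E2F element and neither of the other motifs. A match describes these letters only, and its relation to the spread between samples was not tested. MCM4, MCM5, CCNE2, AURKA, TPX2, UBE2C, BIRC5 and TTK had no matched window.

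The libraries held 14877502 to 16971865 counts in iEC and 13739364 to 15987839 in iREC, and a count of 3 corresponded to 0.178 to 0.215 CPM (counts per 1e6 counts of the library, with library totals scaled by the TMM method). The lowest count of any of the 42 genes in any sample was 21, so none was near that floor. Sample iEC F had the smallest TMM factor, 0.9404, and the fewest genes detected, 20976 against 22430 to 25817 in the others. Of 8 endothelial markers, such as PECAM1, CDH5 and KDR, none was at 0 counts in any sample. Their summed level was 6182 to 8149.5 CPM in iEC and 4018 to 8959 CPM in iREC. The lowest sum was in iREC F and the highest in iREC E, the iREC samples with the highest and the lowest level of the division genes. Of the 8 markers, PECAM1 and CDH5 were called lower in iREC by edgeR (adjusted p 0.000632 and 0.0298) and TEK and CLDN5 higher (0.00011 and 0.049).

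The levels of the division genes overlapped between iEC and iREC and varied widely among the iEC samples. All 42 genes together took 3748 CPM in iEC C, 4077 in iEC D, 2011 in iEC E and 783 in iEC F. In iREC they took 3446 CPM in C, 3317 in D, 2264 in E and 4187 in F. Sample iEC F was the lowest of all 8 samples and iREC F the highest, and 3 of the 4 iREC values lay inside the iEC range. In 41 of the 42 genes, iEC C and D were above iEC E and iEC E above iEC F, an order found in 18.6% of all tested genes. PCNA was the exception, with iEC E slightly below iEC F.

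**Figure D1:**
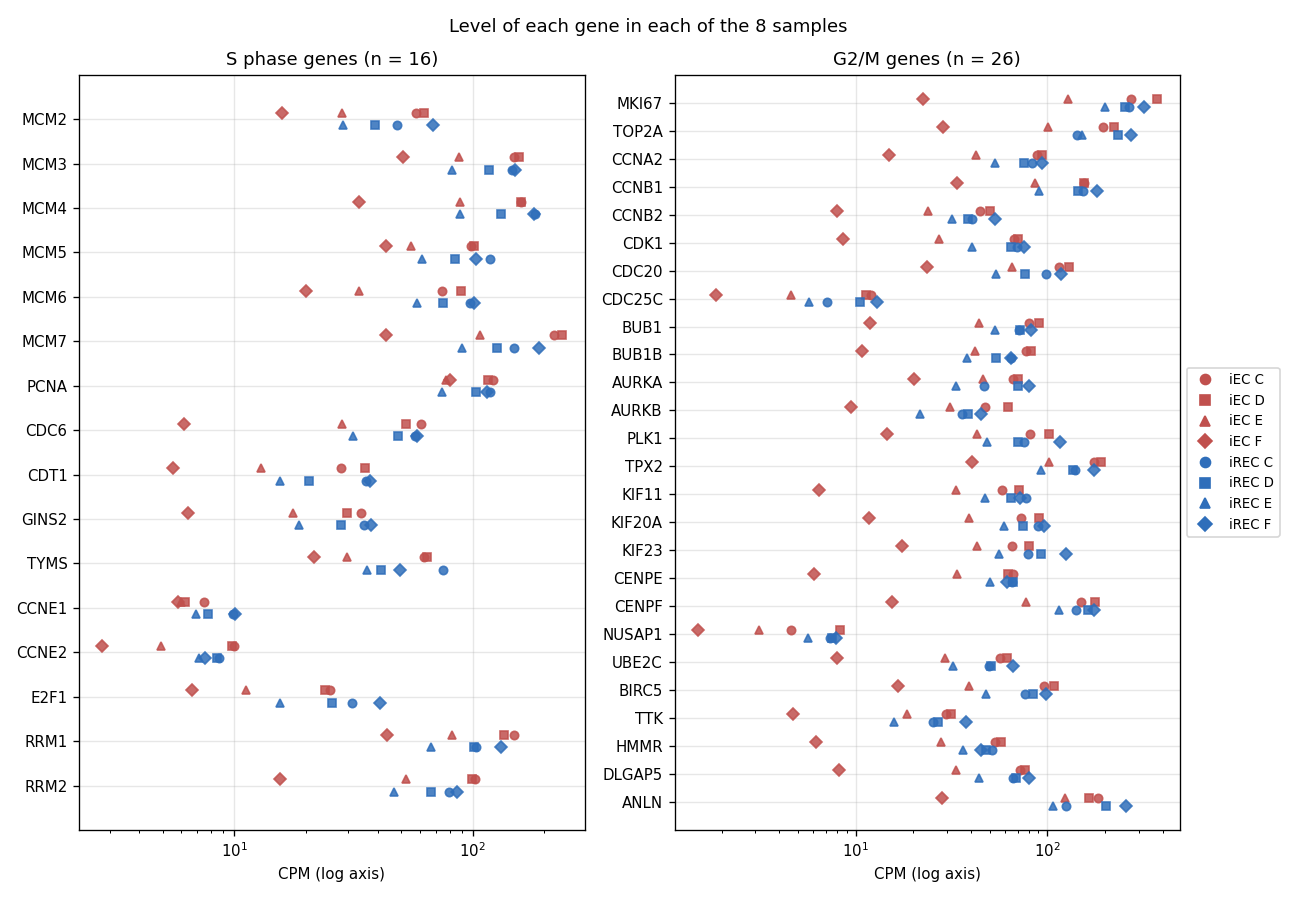
Level of each of the 16 S phase genes (left) and 26 G2/M genes (right) in each sample, in CPM on a log axis, with iEC in red and iREC in blue and the replicate letter as the symbol. The red diamonds (iEC F) lie lowest in 41 of 42 rows, and the remaining samples of both groups overlap.

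MKI67 encodes Ki-67, the protein used in pathology to mark cycling cells (ENSG00000148773, chromosome 10, 128096659 to 128126385, minus strand). It had 275 CPM in iEC C, 374 in D, 128 in E and 22.5 in F, and 268, 255, 200.3 and 321 CPM in the iREC samples of those letters. The iEC samples thus spanned a 16.6-fold range that enclosed all iREC values, which spanned 1.60-fold. iEC F was 11.5-fold below the mean of the other 3 iEC samples, the largest such gap among the 42 genes.

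TOP2A encodes the topoisomerase that untangles sister chromatids (ENSG00000131747, chromosome 17, 40388516 to 40417950, minus strand). Its levels were 195, 224, 101 and 28.6 CPM in iEC C, D, E and F, and 143, 233, 152 and 272 CPM in the iREC samples of those letters. It was the only gene of the 42 in which iREC C and not iREC E was the lowest iREC sample.

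MCM2 is a subunit of the replicative helicase (ENSG00000073111, chromosome 3, 127598223 to 127622436, plus strand). It had 57.7, 62.6, 28.2 and 15.9 CPM in iEC C, D, E and F and 48.0, 38.8, 28.6 and 68.2 CPM in the iREC samples of the same letters. iEC F was 3.11-fold below the mean of the other iEC samples, a smaller gap than in MKI67. Of its exon bases, 23.6% overlap exons of genes on the opposite strand, so its counts are uncertain if strand was not used in counting.

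PCNA encodes the clamp that holds DNA polymerase on its template and also serves in DNA repair (ENSG00000132646, chromosome 20, 5114953 to 5126626, minus strand). It had 122, 116, 77.5 and 80.7 CPM in iEC C, D, E and F and 118, 103, 74.5 and 115 CPM in the iREC samples of those letters. The highest sample was 1.57-fold above the lowest in iEC and 1.58-fold in iREC, and the lowest of all 8 was iREC E.

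The S phase genes as a set had a mean of 5.91 log2 CPM in iEC C, 5.91 in D, 4.98 in E and 4.06 in F. In iREC C, D, E and F the mean was 5.92, 5.57, 5.11 and 5.98 log2 CPM. The G2/M genes had means of 6.15, 6.32, 5.26 and 3.52 log2 CPM in iEC C, D, E and F and 6.02, 6.08, 5.49 and 6.37 log2 CPM in iREC. Both sets therefore ordered the samples alike at the low end, with iEC F lowest, then iEC E, then iREC E.

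The sets did not shift by the same amount. The S phase mean minus the G2/M mean was negative in 7 samples, from -0.51 in iREC D to -0.10 in iREC C, and 0.53 in iEC F. With medians over the genes in place of means, the difference was 0.58 in iEC F and 0.08 in iREC C. In the remaining samples it then ran from -0.37 in iEC E to -0.09 in iEC C and iREC F. Relative to the mean over all 8 samples, iEC F was at -1.37 log2 units for the S phase genes and at -2.13 for the G2/M genes. iREC E was at -0.32 and -0.16. iEC F was below 1/2 of every other iEC sample in 26 of 26 G2/M genes and 6 of 16 S phase genes, against 5.21% of all tested genes. No member met the same condition in iREC E (0 of 42), against 0.698% of all tested genes.

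**Figure D2:**
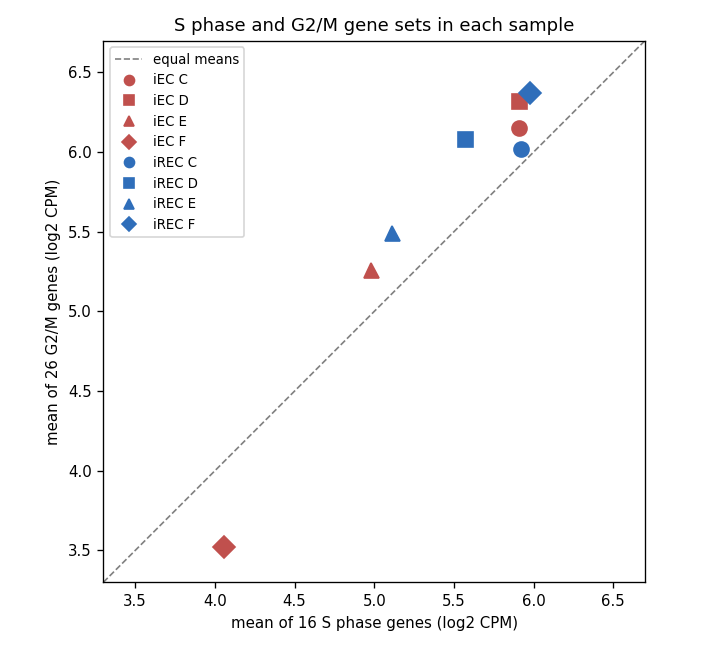
Mean log2 CPM of the 16 S phase genes (horizontal) against that of the 26 G2/M genes (vertical) in each of the 8 samples, with the dashed line where both means are equal. iEC F, at 4.06 and 3.52, is the only sample below the line, and iEC E and iREC E lie between it and the other 5 samples.

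Among the origin licensing and helicase genes, CDC6 differed most between iEC samples. CDC6 had 61.0, 52.7, 28.2 and 6.16 CPM in iEC C, D, E and F and 57.4, 48.6, 31.6 and 58.6 CPM in the iREC samples. Its iEC range of 9.92-fold was the widest of the S phase genes. The other loader, CDT1, ranged 6.40-fold in iEC and 2.39-fold in iREC, and GINS2, part of the active helicase, 5.32-fold and 2.0-fold. The 6 MCM subunits form 1 ring but did not share 1 range: in iEC it ran from 2.35-fold in MCM5 to 5.44-fold in MCM7.

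The helicase subunit MCM6 (chromosome 2, 135839626 to 135876426, minus strand) had 74.5, 89.4, 33.4 and 20.0 CPM in iEC C, D, E and F and 97.8, 75.3, 58.6 and 101 CPM in the iREC samples of those letters. The iREC samples C, D and F were above iEC C, and iREC E lay between iEC E and iEC C. Of the nucleotide supply genes, the ribonucleotide reductase subunit RRM2 ranged 6.61-fold in iEC and its partner RRM1 3.39-fold, and 20.2% of the exon bases of RRM2 overlap another gene on the same strand. TYMS, which makes thymidylate, ranged 2.97-fold, but 46.6% of its exon bases overlap opposite-strand exons of other genes.

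The genes that start S phase behaved differently from each other. CCNE1, for cyclin E1 (chromosome 19, 29811898 to 29824308, plus strand), had 7.48, 6.19, 5.98 and 5.80 CPM in iEC C, D, E and F, the narrowest iEC range of the 42 genes at 1.29-fold. It had 9.88, 7.78, 6.90 and 10.1 CPM in the iREC samples of those letters, so that only iREC E lay below the highest iEC sample. CCNE2, for cyclin E2, had 10, 9.80, 4.91 and 2.79 CPM in iEC and 8.64, 8.49, 7.08 and 7.53 CPM in iREC. Its iEC range was 3.59-fold, and 37.1% of its exon bases overlap opposite-strand exons.

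E2F1 (chromosome 20, 33675683 to 33686404, minus strand), the transcription factor that turns on many S phase genes, had 25.2, 24.1, 11.2 and 6.66 CPM in iEC C, D, E and F. The iREC samples of those letters had 31.3, 25.6, 15.5 and 40.7 CPM. The iREC samples C, D and F were above every iEC sample, and iREC E lay between iEC E and iEC D.

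Per length, PCNA was the highest of the S phase genes, with a deposited FPKM (fragments per kilobase of transcript, scaled for depth) of 66.6 ± 14.5 in iEC and 68.5 ± 13.5 in iREC (SD, n = 4). CCNE2 was the lowest, at 1.54 ± 0.789 and 1.77 ± 0.166 FPKM. Of the G2/M genes, CCNB1 was the highest by FPKM, at 41.5 ± 22.4 in iEC and 54.8 ± 14.9 in iREC (SD, n = 4). NUSAP1, a spindle microtubule protein, was the lowest at 1.5 ± 0.977 and 2.43 ± 0.361 FPKM. Its level is uncertain, because 62.2% of its exon bases are shared with AC087721.2, an overlapping gene on the same strand that was not analysed here. The median FPKM of the G2/M genes was 17.5, 20.7, 9.14 and 2.83 in iEC C, D, E and F.

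Cyclins and their kinase followed the common order in iEC. CCNB1, whose product with CDK1 starts mitosis (chromosome 5, 69167010 to 69178245, plus strand), had 156, 156, 85.9 and 33.9 CPM in iEC C, D, E and F. The iREC samples of those letters had 153, 144, 90.8 and 182 CPM. CDK1 itself ranged 8.18-fold in iEC, from 8.59 CPM in F to 70.2 in D, and 1.87-fold in iREC. CCNA2 and CCNB2 ranged 6.25-fold and 6.31-fold in iEC, and CDC25C, the phosphatase that activates CDK1, 6.46-fold.

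The spindle checkpoint and exit genes had similar iEC ranges. BUB1 and BUB1B, checkpoint kinases at the kinetochore, ranged 7.62-fold and 7.58-fold, TTK, which recruits them, 6.66-fold, and CDC20 and UBE2C, which drive the anaphase promoting complex, 5.54-fold and 7.70-fold. Of the mitotic kinases, AURKA had the narrowest iEC range of the G2/M genes, 3.47-fold, while AURKB ranged 6.60-fold and PLK1 6.96-fold. Exons of other genes overlap 10.2% of BUB1B on the same strand and 12.5% of PLK1 on the opposite strand. TPX2, which activates AURKA on the spindle, ranged 4.69-fold, and BIRC5, which works with AURKB at the centromere, 6.56-fold. In iREC none of these 10 genes ranged more than 2.40-fold.

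KIF11, the motor that separates the spindle poles (chromosome 10, 92593286 to 92655395, plus strand), had 57.9, 70.9, 33.5 and 6.44 CPM in iEC C, D, E and F. It had 77.2, 64.8, 47.4 and 72.1 CPM in the iREC samples of those letters, and its iEC range was 11.0-fold. KIF23, a motor of the midzone needed for cytokinesis (chromosome 15, 69414246 to 69448427, plus strand), had 65.5, 80.0, 42.9 and 17.5 CPM in iEC and 79.5, 92.6, 56.2 and 125 CPM in iREC. Its highest value was in iREC F, and its iEC range was narrower, 4.58-fold. KIF20A, another midzone motor, ranged 7.64-fold in iEC.

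The kinetochore proteins CENPE and CENPF ranged 10.9-fold and 11.4-fold in iEC, next to MKI67 the widest with KIF11. In iREC the same genes ranged 1.32-fold and 1.53-fold. HMMR and DLGAP5, spindle assembly proteins, ranged 9.17-fold and 9.29-fold in iEC, and ANLN, a scaffold of the contractile ring, 6.43-fold. NUSAP1 (chromosome 15, 41332694 to 41381050, plus strand) had 4.62, 8.28, 3.14 and 1.5 CPM in iEC C, D, E and F and 7.33, 7.57, 5.62 and 7.93 CPM in the iREC samples of those letters. For NUSAP1 the iREC samples lay within the iEC range, while the highest iREC sample was above it in CENPE, DLGAP5, ANLN, KIF11 and KIF23.

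Set beside all genes, the division genes were spread widely within iEC and less so within iREC. The median ratio of the highest to the lowest iEC sample was 3.86 for S phase genes and 6.81 for G2/M genes, against 1.61 over the 15020 tested genes above 0 in each iEC sample. In iREC the medians were 1.94 and 1.88, against 1.56 over 15209 genes. The iREC range was over 2-fold in 18 of the 42 genes, against 31.7% of all tested genes. A range over 4-fold within iEC was found in 7 of 16 S phase and 25 of 26 G2/M genes, against 12.3% of all tested genes. The iREC range was smaller than the iEC range in 40 of 42 genes, against 53.3% of all tested genes. The exceptions were PCNA and CCNE1. The wide iEC spread rested on iEC F. Without it, the median iEC ratio was 2.0 for S phase genes and 2.11 for G2/M genes, against 1.35 over all tested genes, and that of MKI67 went from 16.6 to 2.93. No member then ranged over 4-fold (0 of 42), against 6.71% of all tested genes, and the iEC range was wider than that of the 4 iREC samples in 7 of 16 S phase and 17 of 26 G2/M genes, against 32.9% of all tested genes. The iREC spread depended on iREC E and, to a lesser degree, on iREC F. Without iREC E, the median iREC ratio was 1.33 for S phase genes and 1.27 for G2/M genes, against 1.40 over all tested genes. A range over 2-fold was then found in 0 of 16 and 1 of 26 of them, against 24.0% of all tested genes. Without iREC F, the medians were 1.74 and 1.61, against 1.35 over all tested genes. A range over 2-fold was in that case found in 4 of 16 and 1 of 26, against 18.2% of all tested genes.

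**Figure D3:**
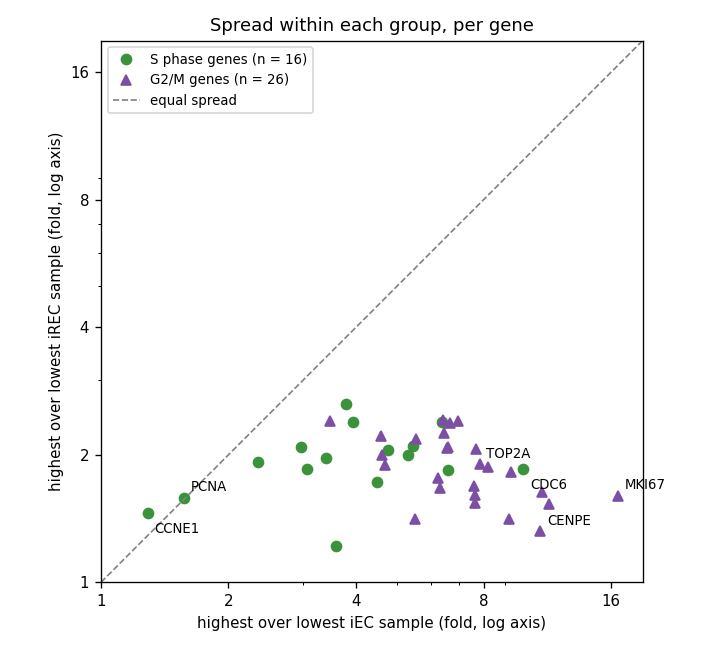
Ratio of the highest to the lowest of the 4 samples within iEC (horizontal) and within iREC (vertical) for each S phase gene (circles) and G2/M gene (triangles), both on log axes. MKI67 lies at 16.6 and 1.60, and only CCNE1 and, narrowly, PCNA lie above the dashed line of equal ratios.

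Within iREC, the same samples were low and high across the set. iREC E was the lowest iREC sample in 41 of 42 genes, against 29.1% of all tested genes, and iREC F the highest in 34, against 33.3%. Of the 7 genes in which iREC C was highest, 5 were S phase genes. Within iEC, D was the highest sample in 31 of the 42 genes and C in 11, against 25.4% and 22.3% of all tested genes. D was the highest sample in 23 of 26 G2/M genes and C in 3, while C and D were each highest in 8 of 16 S phase genes.

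The study compared iREC with iEC, and in that comparison none of the division genes passed the test. edgeR's quasi-likelihood test called 0 of 16 S phase genes and 0 of 26 G2/M genes at an adjusted p under 0.05, against 25.0% of all tested genes (13.2% higher and 11.7% lower in iREC). At an unadjusted p under 0.05 edgeR again gave 0 of 42, against 37.8% of all tested genes. DESeq2 called 0 of 42 with 1 at an unadjusted p under 0.05, and limma-voom called 0 with 0. In none of the 42 genes were the groups without overlap, against 29.1% of all tested genes. The authors' deposited table likewise lists 0 of the 42 with an adjusted p under 0.05, against 16.3% of its genes, and its lowest value among them is 0.171.

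The fitted differences were mostly positive, with wide intervals. The median log2 fold change (iREC against iEC) was 0.25 over the S phase genes and 0.37 over the G2/M genes, against 0.02 over all tested genes. It was positive in 14 of 16 and 25 of 26 of them, and negative in MCM7, RRM1 and AURKB. The median standard error was 0.47 log2 units over the 42 genes, against 0.23 over all tested genes. The 95% confidence interval of the difference lay within 1 log2 unit of 0, a 2-fold difference either way, in 5 S phase genes and 0 G2/M genes. It reached 1 log2 unit or more upward in 35 of the 42 genes and downward in 5, so that a 2-fold higher level in iREC lay inside the interval of most of these genes.

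The largest fitted differences in the S phase set were in E2F1, MCM6 and CCNE1, with GINS2 equal to CCNE1 at 2 decimals. E2F1 averaged 16.8 ± 9.27 CPM in the iEC samples and 28.3 ± 10.6 in the iREC samples (SD, n = 4). Its log2 fold change was 0.75 with a standard error of 0.44 (interval -0.23 to 1.73, edgeR adjusted p 0.241). MCM6 was 54.3 ± 33.0 and 83.1 ± 19.9 CPM (log2 fold change 0.61, interval -0.34 to 1.57, edgeR adjusted p 0.325). CCNE1 was 6.36 ± 0.761 and 8.66 ± 1.57 CPM, with the lowest p of the 42 genes (log2 fold change 0.44, interval -0.02 to 0.91, edgeR adjusted p 0.153).

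In the G2/M set they were in KIF23, NUSAP1 and KIF11, with log2 fold changes of 0.78 (interval -0.16 to 1.72), 0.69 (-0.30 to 1.69) and 0.63 (-0.60 to 1.87). Their adjusted p by edgeR were 0.206, 0.286 and 0.439. The 4 marker genes of division did not pass the test either. MKI67 averaged 199.7 ± 156 CPM in the iEC samples and 261 ± 49.7 in the iREC samples (SD, n = 4; log2 fold change 0.39, interval -1.03 to 1.80, edgeR adjusted p 0.695). TOP2A had an interval from -0.63 to 1.72 and MCM2 from -0.79 to 1.11 (edgeR adjusted p 0.485 and 0.818). PCNA, 98.9 ± 23.0 and 103 ± 19.8 CPM, had the narrowest interval of the 42, from -0.40 to 0.50 (edgeR adjusted p 0.878).

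The positive balance depended on sample iEC F. Without it, the median log2 fold change went from 0.25 to 0.01 in the S phase genes and from 0.37 to 0.04 in the G2/M genes, and 24 of the 42 values were positive and 18 negative. The median standard error went from 0.47 to 0.29, and the edgeR test again called 0 of 42. The log2 fold change of MKI67 became 0.01 (interval -0.74 to 0.76) and that of KIF11 0.27 (-0.33 to 0.88). Leaving out another single sample gave medians from 0.13 to 0.44 in the S phase genes and from 0.23 to 0.67 in the G2/M genes, lowest without iEC E and iREC F respectively, and 0 calls in each fit.

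**Figure D4:**
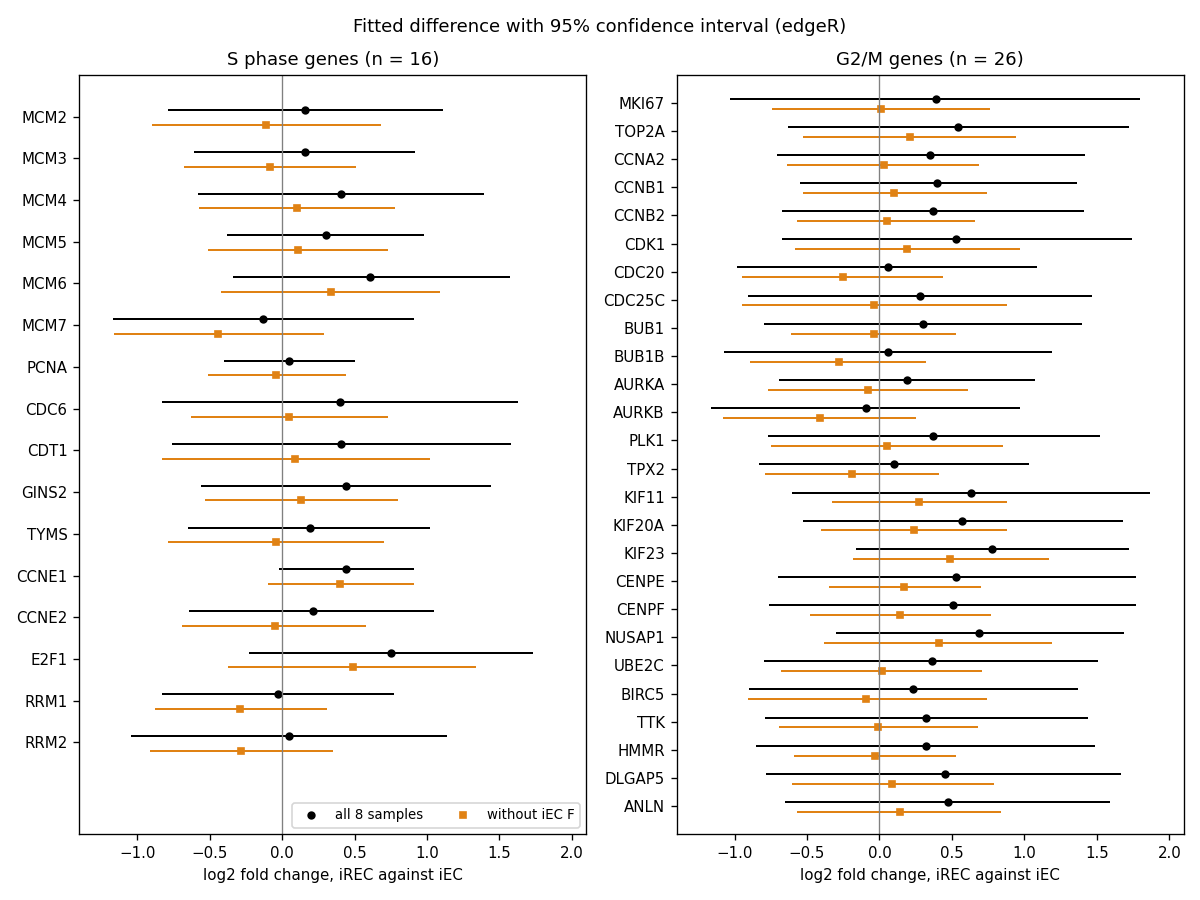
Log2 fold change of iREC against iEC from edgeR for the 16 S phase genes (left) and 26 G2/M genes (right), with lines for the 95% confidence interval. Black circles use all 8 samples and orange squares leave out iEC F, which moves the median of the G2/M genes from 0.37 to 0.04, and all intervals of both fits include 0.

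Other genes of the same pathways were mostly lowest in the same sample. Their lists were named by role, but with earlier results of these data known. Of 22 further replication genes, such as ORC1, CDC45 and the flap endonuclease FEN1, 0 were called by edgeR (median log2 fold change 0.33), and 21 were lowest of all 8 samples in iEC F, against 22.2% of all tested genes. Their mean was 5.18, 5.09, 4.20 and 3.18 log2 CPM in iEC C, D, E and F. CDC7, the kinase that fires licensed origins, had the lowest p, with means of 16.1 ± 8.85 and 35.2 ± 5.51 CPM (SD, n = 4) and an edgeR adjusted p of 0.0539. It passed under 8 of the 16 alternatives, DESeq2, limma-voom and the fit without iEC D among them, with adjusted p from 0.0123 to 0.119. Of 22 further kinetochore, spindle and cytokinesis genes, 0 were called (median 0.26) and 20 were lowest in iEC F. PRC1, the midzone bundling protein, had the lowest p in that list but was near the floor, at 0.532 ± 0.424 and 1.27 ± 0.387 CPM (edgeR adjusted p 0.154). Of 9 condensin and chromosome structure genes, 0 were called (median 0.29), and 9 were lowest in iEC F.

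The remaining cell cycle lists cover transcription factors, CDK inhibitors with G1 cyclins, p53 targets and ubiquitin turnover. They are given with the share called over all tested genes, 25.0% (13.2% higher and 11.7% lower in iREC). Of 13 transcription factors of the cell cycle, 3 were called higher and 1 lower in iREC (median 0.16), a share close to that of all genes. E2F2, an activator, was at 0.845, 2.21, 0.296 and 0 CPM in iEC C, D, E and F and at 5.25 to 7.73 CPM in iREC (edgeR adjusted p 0.0234). RBL2, the pocket protein p130 that binds E2F targets in resting cells, rose from 41.1 ± 3.71 to 63.4 ± 3.03 CPM (SD, n = 4), with an edgeR adjusted p of 0.00348. E2F3 rose from 28.9 ± 3.41 to 39.0 ± 3.41 CPM (edgeR adjusted p 0.0386). E2F7, a repressor, fell from 89.8 ± 37.6 to 16.6 ± 5.31 CPM (edgeR adjusted p 0.00119). E2F7 and RBL2 passed under all 16 alternatives, while E2F2 missed in 3 (without iEC C, iEC E or iREC D) and E2F3 in 8, among them the fits without iEC E, iEC F, iREC C, iREC D or iREC F. The list had 2 calls, not 4, without iEC E or without iREC D. MYBL2 and FOXM1, activators of G2/M genes, were not called (edgeR adjusted p 0.153 and 0.835). FOXM1 had 88.4, 104, 47.9 and 15.6 CPM in iEC C, D, E and F.

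Of 13 CDK inhibitors, G1 cyclins and their kinases, 9 were called by edgeR, 4 higher and 5 lower in iREC (median -0.09), against 25.0% of all tested genes. The inhibitors CDKN1C, CDKN2C and CDKN1B led the higher ones, and the inhibitors CDKN2A and CDKN2B and the cyclin gene CCND1 the lower ones. CDKN2C was low in iEC, at 0.707 ± 0.35 CPM (SD, n = 4), and was not tested under the stricter filter. CDK6 missed the call in 6 of the 16 alternatives and CCND3 in 2. Over the alternatives the list had 7 to 10 calls. Of 10 p53 targets, 6 were called and all 6 were lower in iREC (median -0.82), against 11.7% of all tested genes called lower. They were led by CDKN1A, FAS and BBC3. CDKN1A, which encodes the CDK inhibitor p21, had 658, 638, 764 and 1365 CPM in iEC C, D, E and F and 259 to 359.5 CPM in iREC (edgeR adjusted p 0.00233). The summed level of the p53 targets was 2702 CPM in iEC F and 1569 to 1955 CPM in iEC C, D and E, against 897 to 1219 CPM in iREC. CDKN1A alone supplied 1365 CPM of the iEC F sum. GADD45A, BAX, TP53I3 and ZMAT3 were also highest of the iEC samples in iEC F, while MDM2, BBC3, SESN1, FAS and RRM2B were not. Of 8 genes of ubiquitin turnover, 1 was called, a smaller share than the 25.0% of all tested genes. It was CDC27, a subunit of the anaphase promoting complex, with means of 168 ± 31.9 and 121 ± 8.87 CPM (edgeR adjusted p 0.0414). With 1 sample left out, CDC27 passed the test without iEC F and missed it in the other 7 fits.

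**Figure D5:**
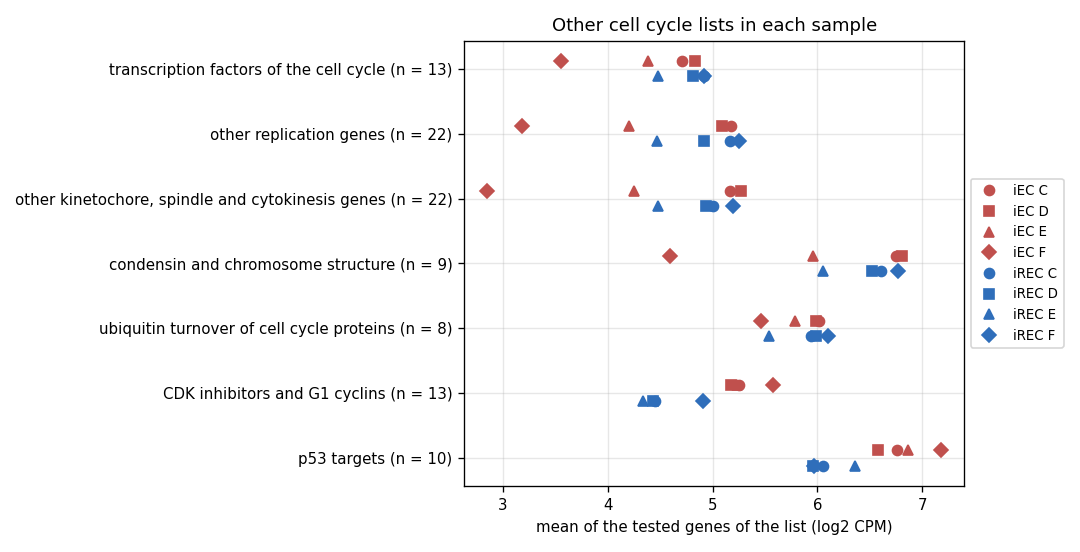
Mean log2 CPM of the tested genes of 7 other cell cycle lists in each sample, with iEC in red and iREC in blue. iEC F is lowest of the 8 samples in the upper 5 lists and highest in the lists of CDK inhibitors with G1 cyclins and of p53 targets, which share CDKN1A.

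Markers of other cell types also varied between the samples that stood at the ends of the division range. Of 10 mural and mesenchymal markers, none was at 0 in all samples and DCN was at 0 in 3 iEC samples. Their summed level was 230 to 482 CPM in iEC, highest in iEC F, and 619 to 4479 CPM in iREC, highest in iREC F and lowest in iREC E. COL3A1 supplied 1641 CPM of the iREC F sum. Of the 9 tested, edgeR called 3 higher and 1 lower in iREC, against 13.2% and 11.7% of all tested genes. The lower one was RGS5 (edgeR adjusted p 0.021), which had 161, 146, 94.6 and 60.8 CPM in iEC C, D, E and F. The 6 epithelial markers, of which CDH1 was at 0 counts in 3 iEC samples and 1 iREC sample and KRT7 at 0 in 1 iEC sample, summed to 391 to 1174 CPM in iEC and 302 to 4924 CPM in iREC, again highest in the F samples. The iREC sum was lowest in iREC C. Of 5 pluripotency markers, NANOG was at 0 in 6 samples and SOX2 in 4, and NANOG had at most 2 counts, SOX2 at most 6 and POU5F1 at most 19 in any sample. The other members carried the sum: LIN28A had 32.4, 15, 10.5 and 8.45 CPM in iEC C, D, E and F and 20.5, 147, 53.7 and 482 CPM in the iREC samples of those letters (edgeR adjusted p 0.0242), and DNMT3B 4.22 to 25.7 CPM in iEC and 35.5 to 37.4 CPM in iREC. The list summed to 12.9 to 52.9 CPM in iEC, lowest in F, and 58.1 to 518 CPM in iREC, highest in F. The part of such cells in the levels of the division genes was not tested.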

How the data were processed

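Per the labels' protocols, poly-A RNA was made into dUTP libraries. The submitters' processing notes name fastp, HISAT2 2.0.5 and the build hg38; the counting program and its use of strand are not given in the sources used here. Per the file headers, the deposited table holds raw read counts, a normalized signal (each count divided by 1 factor per sample), FPKM, and the authors' log2 fold changes and p-values. From the values, the deposited FPKM are that signal per kilobase, scaled to 1 common library of 15383181. All 30386 gene identifiers are in GENCODE 29, and coordinates are 1-based on GRCh38.

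Counts were filtered with filterByExpr, scaled by TMM and compared with edgeR 4.0.16 (quasi-likelihood F-test, all 8 samples, group as the only term, Benjamini-Hochberg adjustment over 15330 genes, called at 0.05). Intervals are 95% intervals from the coefficient, its standard error and the fitted degrees of freedom. CPM use TMM-scaled libraries, and their log2 values a prior count of 2. DESeq2 1.42.0 and limma 3.58.1 were alternatives, beside other scalings and filters, a block on the letter and each sample left out. The test was also run on counts simulated from the means and dispersions of these data with known changes, and its outcome is not given here. Promoter windows are from RefSeq, with the first window where a gene had several. The labels mention no molecular identifiers, and floors therefore cover counting error only.

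The genes and lists were chosen with earlier results of these data known. Full values are given for MKI67, TOP2A, MCM2 and PCNA, the 3 largest differences in each set, and the highest and lowest by FPKM; CDC6, CDK1 and the other genes outside that rule were chosen after their values were seen. Of other lists, called genes are named, up to 3 in each direction, or else the lowest p; MYBL2 and FOXM1 were chosen after seeing values. The motifs were chosen after the sample pattern was seen.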

Additional observations from a re-analysis of the deposited data

Results flagged for a closer look

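Dixon's test at the 95% level was applied to the lowest and the highest value of every 4-sample group, for genes and lists alike. Of 102 such groups 1 passed it, where chance gives about 1 in 20. It was the mean of the 13 CDK inhibitors, G1 cyclins and their kinases, which was 5.58 log2 CPM in iEC F, against 5.18 to 5.25 in the other iEC samples. That list joins inhibitors with cyclins and kinases, so its mean gives no direction for division. The inhibitors CDKN1A, CDKN2A and CDKN2B and the cyclin genes CCND1, CCND2 and CCND3 were highest of the iEC samples in iEC F. CDK2 and the inhibitor CDKN2D were lowest there. None of the 42 division genes passed.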

How the results depend on the processing

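The counts of called division genes (0 of 42) held under all 16 alternatives, while the lowest adjusted p of any of the 42 ran from 0.0506 (edgeR without iEC D) to 0.262. With limma-voom the medians were 0.36 (S phase) and 0.64 (G2/M), and with the replicate block 0.35 and 0.57, with 3334 genes called over all genes against 3829. The letters were not taken as pairs in the main fit. The correlation of deviations between same-letter samples was 0.168, -0.079, 0.029 and 0.25 for C, D, E and F. Between iEC and iREC samples of different letters it ran from -0.221 to 0.178. Not every sample correlated best with its own letter, and the block changed no call among the 42. These few values do not settle whether the letters mark pairs.

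No call reversed, but 18 of the 42 uncalled fold changes changed sign in some alternative, 15 of them only when a sample was left out. Over the fits that left out a sample, log2 fold changes ran from -0.08 to 0.39 in AURKA, -0.41 to 0.27 in AURKB, -0.09 to 0.61 in BIRC5, -0.04 to 0.62 in BUB1, -0.28 to 0.35 in BUB1B, -0.05 to 0.44 in CCNE2, -0.25 to 0.36 in CDC20, -0.04 to 0.61 in CDC25C, -0.03 to 0.64 in HMMR, -0.11 to 0.44 in MCM2, -0.08 to 0.37 in MCM3, -0.44 to 0.17 in MCM7, -0.05 to 0.18 in PCNA, -0.29 to 0.20 in RRM1, -0.28 to 0.32 in RRM2, -0.19 to 0.37 in TPX2, -0.01 to 0.59 in TTK and -0.07 to 0.42 in TYMS. AURKB, MCM7 and RRM1 were also positive with limma-voom (0.13, 0.10 and 0.08) and with the block (0.08, 0.04 and 0.05). The cause was not tested. The list of other replication genes had 1 call under 8 alternatives, and the transcription factor list 2 without iEC E or iREC D. The CDC27 and E2F3 calls were lost under library size only, no filter and the block, and CDC7 passed under the block. Leaving out each iEC sample, an alternative chosen after seeing the data, gave median iEC ranges of 2.0 to 3.86 (S phase) and 2.11 to 6.81 (G2/M), lowest without iEC F. With each iREC sample likewise left out, the median iREC ranges were 1.33 to 1.94 and 1.27 to 1.88. They were lowest without iREC E.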
